A study of Mus musculus with 14 samples.

Results

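The genes for the proteins of the cytosolic ribosome were examined in macrophages from mouse brain tumours for H3K27ac, the acetylation of lysine 27 on histone H3 that marks active regulatory DNA. Members were the protein-coding genes whose symbol is Rpl or Rps with a number and at most 1 further letter, together with Rplp0, Rplp1, Rplp2 and Rpsa. That gave 81 of 21887 protein-coding genes: 30 of the small subunit, 46 of the large subunit and 5 paralogues (Rpl3l, Rpl10l, Rpl39l, Rps27l and Rpl32l). The choice is by symbol alone.

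The cells were CD11b+ tumour-associated macrophages, sorted from the brain tumours of NSG mice that carried orthotopic xenografts of the human glioblastoma line T387. NSG mice lack mature lymphocytes and keep myeloid cells, so the macrophages are those of an immunodeficient host. Treatment is the only difference between the groups that the labels state. It was pracinostat, a histone deacetylase inhibitor, at 30 mg/kg by gavage (4 libraries), or the DMSO-containing vehicle (3 libraries). It was given on 4 days of each of 3 weeks, starting 7 days after the tumour cells were implanted. Another protocol in the labels gives 3 mg/kg for the prepared drug, so the dose is uncertain. Each of the 7 samples also had a library made with non-specific IgG. The labels call the samples biological replicates without naming the animals, their age or their sex, so the spread behind each p-value may be partly technical.

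Ribosomal proteins are made in equal proportions and in very large amounts, and their genes count among the most strongly transcribed genes of growing cells. Their mRNAs typically begin with a C followed by a run of pyrimidines, the 5′ terminal oligopyrimidine (TOP) motif, through which the mTORC1 kinase pathway controls their translation. The promoters are compact and usually lack a classical TATA box. Many introns of these genes carry small nucleolar RNAs, which guide the modification of ribosomal RNA.

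H3K27ac was mapped by CUT&Tag, in which an antibody directs a transposase to the mark, and the values are peak summits with a −log10 significance score. Scores are not comparable between libraries. Each gene therefore received the highest score within 1 kb of either gene end, expressed as a percentile among all protein-coding genes of the same library, where 100 is the strongest and genes without a summit tie at the bottom. A percentile is thus a relative level, and a change of acetylation shared by all genes would not show. The H3K27ac libraries held 208401 to 291042 summits, except the library of DMSO replicate 2 with 53503. That library stood apart from the other 6: genes without a summit had a percentile of 30.6 in it, against 19.2 to 21.2 elsewhere, and 19 ribosomal protein genes tied at its lowest score, at a percentile of 67.2. The number of summits stands in for depth, because read totals per library are not stated in these sources.

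Promoter sequences from RefSeq (build GRCm38.p6, which mm10 names) matched 61 of the 81 genes. The 7 windows below run from 60 bases before to 20 bases after the listed transcript start and show members with a long pyrimidine run at the start beside members without one. Capitals mark the longest run of C or T that reaches within 20 bases of the start, and the first of them where runs tie. The windows are for Rpl15 chr14:18270966-18271046 on the minus strand, for Rps6 chr4:86857347-86857427 on the minus strand, for Rpl27a chr7:109519135-109519215 on the plus strand, for Rps16 chr7:28350629-28350709 on the plus strand, for Rps28 chr17:33824542-33824622 on the minus strand, for Rps27l chr9:66946026-66946106 on the plus strand, and for Rpl10l chr12:66284381-66284461 on the minus strand.
Rpl15: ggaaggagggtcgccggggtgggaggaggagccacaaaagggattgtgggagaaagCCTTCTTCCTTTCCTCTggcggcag
Rps6: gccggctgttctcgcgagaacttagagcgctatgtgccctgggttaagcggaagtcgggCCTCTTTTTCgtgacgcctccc
Rpl27a: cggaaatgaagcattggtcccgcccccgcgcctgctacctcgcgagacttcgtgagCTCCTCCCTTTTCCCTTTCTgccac
Rps16: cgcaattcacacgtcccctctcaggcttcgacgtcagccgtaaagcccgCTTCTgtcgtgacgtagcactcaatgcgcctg
Rps28: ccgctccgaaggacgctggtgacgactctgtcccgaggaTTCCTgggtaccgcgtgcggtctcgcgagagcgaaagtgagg
Rps27l: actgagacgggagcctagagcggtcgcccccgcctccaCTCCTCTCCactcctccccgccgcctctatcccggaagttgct
Rpl10l: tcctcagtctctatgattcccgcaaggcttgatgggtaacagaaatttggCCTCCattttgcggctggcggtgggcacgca
Rpl15 and Rps6 start with a C followed by pyrimidines, and in Rpl27a the start lies inside a run of 20 pyrimidines. Rps16 and Rps28 have runs of 5 that end before the start. Rps27l has a run of 9 in capitals upstream of its start, and another run of 9 between that run and the start. Rpl10l, a retrotransposed copy of Rpl10 known for its use in the testis, has a run of 5.

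Over the 61 promoters, a start of C followed by 4 pyrimidines occurred in 21.3%, against 2.17% of 17492 promoters of protein-coding genes. A run of at least 8 pyrimidines within 20 bases of the start, which can include the former, occurred in 49.2% against 20.3%. The share with a C start rests on a single listed start per gene, the one nearest the outer gene end. It needs the C at that exact base, so Rpl27a, whose listed start is a T inside its run, is not counted. Starts in use a few bases from the listed one were not tested. Motifs were searched on both strands of the 300-base promoters, where a base may belong to more than 1 motif. CCGGAAG, the core recognised by ETS factors, was present in 39.3% of the ribosomal protein promoters against 11.9% of all. TGACG, a half-site of the cyclic AMP response element, was present in 47.5% against 23.8%. TCTCGCG was found in 19.7% against 3.65%, and ATGGCG, the core of YY1 sites, in 29.5% against 11.2%. The GC box GGGCGG (57.4% against 46.3%), GCATGCG of NRF1 (6.56% against 4.50%), TATAAA (11.5% against 13.3%) and CCAAT (31.1% against 39.2%) were closer to the share of all promoters. The median GC content was 57.0% against 56.3%, and the median number of CpG dinucleotides was 21 against 13. These matches describe letters and not binding.

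Acetylation was near universal in the family. A summit lay within 1 kb of an end in all 7 libraries for 69 of the 81 genes (85.2%, against 34.7% of all protein-coding genes). Another 7 genes (Rplp0, Rpl23, Rpl23a, Rpl24, Rpl26, Rpl31 and Rpl36a) had one in 6 libraries, and each of them lacked it in the library of DMSO replicate 2. Rpl22, Rps27l, Rpl39l and Rpl32l had a summit in 5, 4, 3 and 2 libraries, and Rpl10l had none. The 30 small-subunit genes were marked in every library.

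The level was high, but seldom above a percentile of 90 in every library. The median of the mean percentile over 7 libraries was 80.1 for the family and 44.4 for all protein-coding genes. In every library 67 of the 81 genes were above a percentile of 50 (82.7%, against 31.7% of all genes). Above 90 in every library stood 1 member, Rps27a (1.23%, against 1.43% of all genes). Small-subunit genes had a median of 81.5 and large-subunit genes 79.8. Within a gene, libraries spread by a median SD of 8.17 among the 69 genes marked in all of them, close to the 8.44 of all genes so marked.

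**Figure D1:**
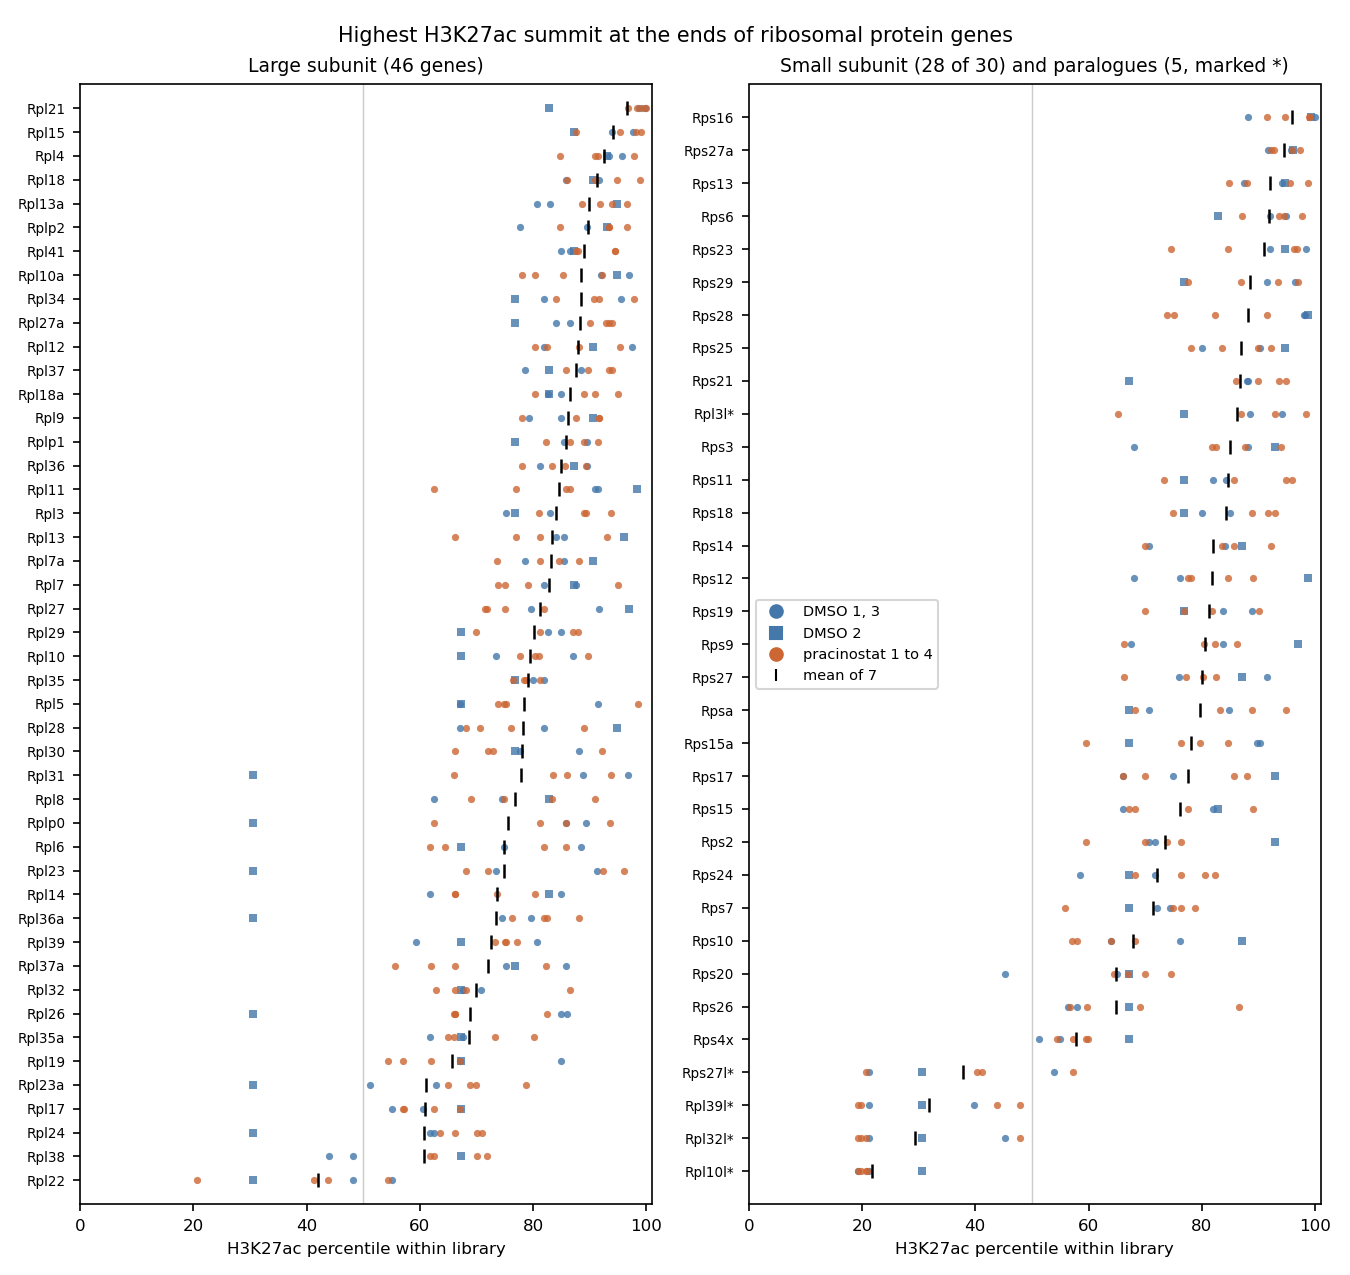
H3K27ac percentile (x axis, 0 to 100, within each library) of the ribosomal protein genes (rows, 2 of the 81 not drawn), one symbol per library in blue for DMSO and orange for pracinostat, with a black bar at the mean of 7. Most genes sit to the right of 50 in every library, the squares of DMSO replicate 2 at 30.6 are genes without a summit there, and Rpl22 and 4 of the 5 paralogues lie lowest.

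At the top of the order stood Rpl21, a large-subunit protein, with a mean percentile of 96.5 ± 6.11 (SD, n = 7). Its values were 98.8, 82.9 and 99.7 in DMSO replicates 1, 2 and 3 and 98.4, 96.8, 99.9 and 99.3 in pracinostat replicates 1, 2, 3 and 4. A single library, DMSO replicate 2, was low. Rps16 followed at 95.9 ± 4.61, with 99.9, 99.2 and 88.2 in DMSO and 94.7, 99.1, 98.9 and 91.5 in pracinostat. Rps27a, which is made as a fusion of ubiquitin with a small-subunit protein, stood at 94.6 ± 2.24 and kept within 91.7 and 97.4 over all libraries. Next came Rpl15 (94.1 ± 4.91), Rpl4 (92.4 ± 4.15) and Rps13 (92.0 ± 5.19). Neighbours in the order cannot be separated: the median gap between neighbours was 0.351 percentile points, and of 80 neighbouring pairs 1 had a gap above the larger of their SDs, Rpl22 and Rps4x.

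The order of the lowest genes depended on where the window lay. By gene ends the 6 lowest were Rpl10l (21.7 ± 4.01), Rpl32l (29.3 ± 12.5), Rpl39l (31.8 ± 12.1), Rps27l (37.9 ± 14.6), Rpl22 (42.0 ± 12.6) and Rps4x (57.8 ± 5.15). A second set of windows was placed at the transcript starts that RefSeq lists, of which 10 of the 61 genes have more than 1. Percentiles by this second set are ranked among the 17492 genes with a listed start, and those by gene ends among 21887. In Rps27l (chr9:66944624-66949522), a p53-responsive relative of Rps27, the listed starts are 1462 and 1789 bp inside the outer end. Around them Rps27l ranked at 91.5, 98.9 and 94.3 in DMSO and at 89.1, 76.6, 96.4 and 94.1 in pracinostat, a mean of 91.6 ± 7.31. By that window Rps27l was among the strongest of the family. Rpl22 has a start at its outer end and another 1290 bp inside. With both counted it stood at 81.5 ± 9.98, with 91.5, 66.1 and 87.8 in DMSO and 73.6, 86.1, 74.6 and 90.9 in pracinostat.

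In 5 genes every listed start lies over 500 bp inside the outer end: Rps27l, Rpl18, Rpl19, Rpl38 and Rps2. Rpl19, with its nearest start 4707 bp inside, had 65.7 at gene ends and 92.8 at its starts. For Rps2 the values were 73.6 and 90.1, and for Rpl38 60.8 and 75.3. Rpl18, with its start 2604 bp inside, was lower by the second window, at 82.1 against 91.2. Rpl18, Rpl19, Rpl38 and Rps2 were chosen after their values were seen.

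The 3 genes more than 10 points lower at listed starts were Rpl3l, Rpl4 and Rpl41, and each has an end window that another gene also reaches. Rpl3l, the paralogue of Rpl3 used in heart and skeletal muscle, had 86.2 ± 11.5 at gene ends and 49.9 ± 14.0 at its starts, and shares a window with Msrb1. Rpl4, which shares windows with Zwilch and Snapc5, had 92.4 and 74.5 ± 20.7, with no summit at its start in DMSO replicate 2 (30.4) against 70.7 to 90.2 elsewhere. Rpl41, chosen after its values were seen, shares a window with Zc3h10 and had 89.0 and 72.3. Of the 24 genes with a shared window and a listed start, 20 stayed within 10 points and 1, Rps2, was more than 10 points higher, and the part of sharing in these values was not tested. In all, 8 of the 61 genes differed by over 10 points between the windows. All 56 subunit genes with a listed start lay above 50 there, with a minimum of 56.1 at Rps4x. Of the 5 paralogues, Rps27l alone did so, while Rpl39l (29.6), Rpl32l (22.7) and Rpl10l (22.7) stayed low.

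**Figure D2:**
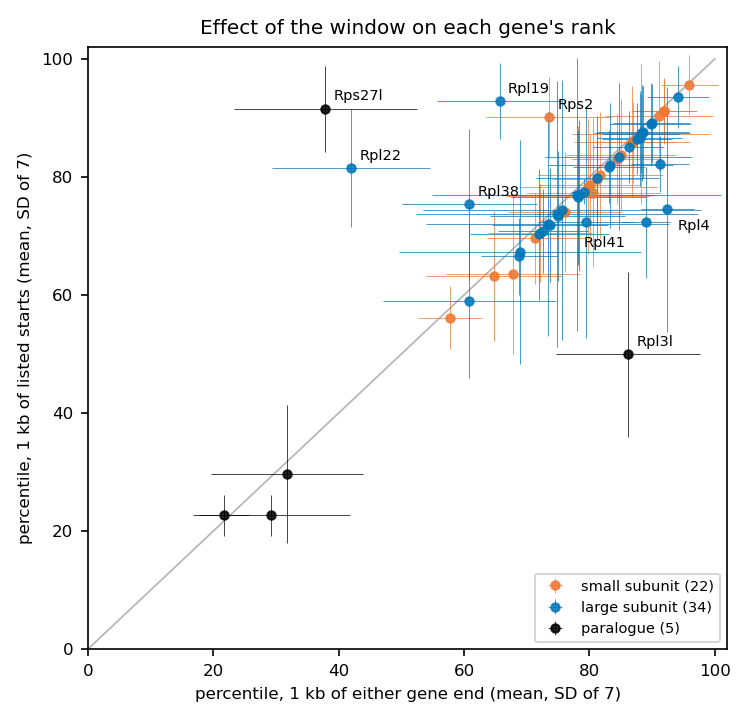
Mean percentile over 7 libraries by windows at both gene ends (x axis) and by windows at all listed transcript starts of a gene (y axis), with SD bars, for the 61 genes with a listed start; the line marks equal values. Rps27l, Rpl22, Rpl19, Rps2 and Rpl38 lie above the line, and Rpl3l, Rpl4 and Rpl41 below it. Ranks are among 21887 genes on the x axis and among the 17492 with a listed start on the y axis.

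By role, the stalk proteins that recruit elongation factors to the ribosome gave 75.6 ± 22.2 for Rplp0, 85.9 ± 4.98 for Rplp1 and 89.8 ± 6.5 for Rplp2. Rplp0 had no summit in DMSO replicate 2 and ranged from 62.5 to 93.6 in the other 6. Rpl5 and Rpl11, which bind the 5S ribosomal RNA and can hold back Mdm2, stood at 78.3 ± 12.1 and 84.7 ± 11.7. Rps6, the substrate of S6 kinase, was at 91.8 ± 5.11. Rps19, the gene most often mutated in Diamond-Blackfan anaemia, was at 81.2 ± 7.20, and Rpsa, also known as the laminin receptor, at 79.7 ± 11. The 4 X-linked genes were Rpl10 (79.5), Rpl36a (73.4), Rpl39 (72.6) and Rps4x (57.8). Rps4x was even across libraries, at 55.0, 67.2 and 51.2 in DMSO and 57.2, 59.5, 59.95 and 54.4 in pracinostat, and its value in DMSO replicate 2 is the tie at that library's lowest score.

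In the IgG libraries the family did not stand out. A summit lay at 1.23 ± 1.23% of its genes in the DMSO IgG libraries (SD, n = 3) and at 1.23% in each of the 4 pracinostat IgG libraries, against 1.85 ± 0.739% and 0.891 ± 0.427% of all genes. Over the 7 IgG libraries together, 7 members (8.64%, against 8.68% of all genes) had a summit, each in 1 library. With the H3K27ac antibody the shares were 93.0 ± 7.02% in DMSO and 96.6 ± 1.55% in pracinostat, against 52.6 ± 12.1% and 59.6 ± 1.45% of all genes. Windows moved by 100 kb held a summit for 33.3 ± 20.6% and 44.4 ± 3.02% of the members, against 29.96 ± 15.01% and 37.5 ± 2.77% of all genes. Protein-coding genes under 10 kb, the length class of most members, had a summit in 41.9 ± 9.63% and 47.1 ± 1.15% of cases.

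**Figure D3:**
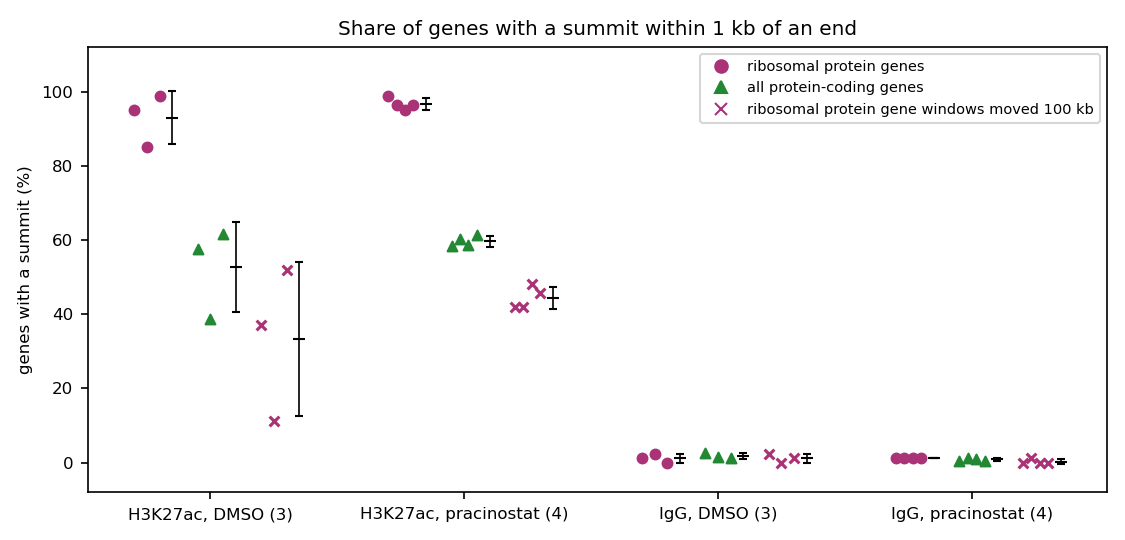
Percent of genes with a summit within 1 kb of an end (y axis) in the 4 groups of libraries (x axis), with each library as a point and the mean and SD beside it. Ribosomal protein genes lie between 85.2 and 98.8% in the H3K27ac libraries and at or under 2.47% in the IgG libraries.

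Summits were centred on the transcript start. Within 1 kb of the listed start, 92.0 ± 5.94% (SD, n = 7) of the 61 genes had a summit, against 53.3 ± 6.87% of all genes with an entry. The highest of these summits lay at a median of 9.07 ± 26.8 bp downstream of the start, and at a median absolute distance of 128 ± 26.6 bp, against 209 ± 34.2 bp for all genes. Among genes longer than 2 kb the highest summit of the end windows lay at the 5′ end in 88.5 ± 2.28% of the members and 84.6 ± 2.07% of all genes. Averaged over libraries, the density was 2.40 summits per gene and kb in the 200 bp before the start and 2.26 in the 200 bp after it, against 1.08 and 0.964 for all genes. Between these bins of 200 bp, the members' density was higher after the start than before it in DMSO replicate 3 and pracinostat replicate 3. Over the full 1 kb on each side it was higher after the start in every library. The members held 1.40 ± 0.31 summits per gene there and 1.10 ± 0.32 before the start, against 0.654 and 0.572 for all genes. From 1 to 3 kb downstream of the start the ribosomal protein genes held 1.53 ± 0.522 summits per gene and all genes 0.613 ± 0.212. From 1 to 3 kb upstream they held 0.855 ± 0.291 and 0.452 ± 0.164. The median length of the members was 3175 bp, against 17170 bp for all genes, so the downstream stretch takes in the 3′ ends of many of them.

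**Figure D4:**
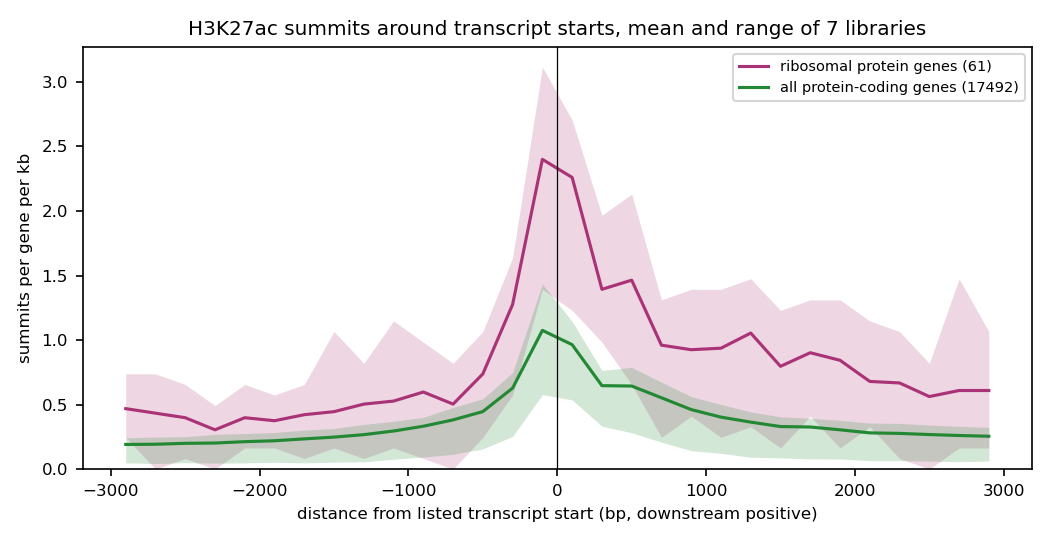
H3K27ac summits per gene per kb (y axis) by distance from the listed transcript start in bins of 200 bp (x axis, downstream positive), as mean (line) and range (band) of the 7 H3K27ac libraries, for 61 ribosomal protein genes and 17492 protein-coding genes. Both mean curves are highest in the 2 bins next to the start, with 2.40 for the ribosomal protein genes and 1.08 for all genes in the bin before it.

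The genes share features of structure that the choice by symbol did not use. Of the 81 genes, 29 (35.8%) contained a small nucleolar RNA gene, against 1.70% of all protein-coding genes, with 58 such RNAs in total. Rpl4 held 5 of them. Host genes had a median percentile of 83.2 (n = 29) and the other subunit genes 80.1 (n = 47). A window was shared with the end of another gene in 29 members (35.8%, against 24.8% of all genes). Subunit genes that shared a window had a median of 85.6 (n = 28) and those that did not 79.8 (n = 48). At listed starts the corresponding medians were 82.1 (n = 23) and 77.3 (n = 33). By promoter, medians with and without a motif lay apart in both directions over the 56 subunit genes with an entry. They were 85 (n = 29) and 78.2 for TGACG, and 84.5 (n = 16) and 79.6 for ATGGCG. For GGGCGG they were 83.2 (n = 33) and 78.2, and for TCTCGCG 82.2 (n = 12) and 79.9. For TATAAA they were 73.5 (n = 6) and 81.2, and for GCATGCG 74.6 (n = 4) and 81.2, each with few genes carrying the motif. The medians were 79.4 (n = 22) and 80.9 for CCGGAAG, and 79.6 (n = 18) and 81.2 for CCAAT. For the TOP-like start they were 79.6 (n = 12) and 80.9. These are descriptions of overlapping sets and were not tested.

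To ask whether the inhibitor changed the standing of ribosomal protein genes, pracinostat libraries were compared with DMSO libraries. No ribosomal protein gene passed the adjusted threshold: 0 of 79 ranked members had an adjusted p under 0.05 (limma, Benjamini-Hochberg over all genes), where 0% of the 13494 ranked genes did. Genes were ranked for the test if 3 or more of the 7 libraries had a summit, which leaves out Rpl10l and Rpl32l. At an unadjusted p under 0.05, 2 members were higher with pracinostat, Rpl23a among them, where 4.03% of all ranked genes were, and 4 were lower, among them Rpl11, Rpl27 and Rps28, where 2.12% were. As shares of the ranked members these are 2.53% and 5.06%. In 4 members the pracinostat libraries all exceeded the DMSO libraries (Rpl23a, Rpl24, Rpl27a and Rpl41, against 3.86% of all ranked genes), and in 4 they were all lower (among them Rpl11, Rpl19 and Rps28, against 2.63%).

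The mean level of the family differed between treatments by less than the spread between libraries. Its mean percentile was 76.6 ± 2.28 in DMSO (SD, n = 3) and 77.9 ± 1.89 in pracinostat (n = 4), and 77.7 in DMSO without replicate 2. The median difference over the 79 ranked members was 0.10 normal-score units (percentiles mapped to a standard normal scale), with 46 genes higher and 33 lower (58.2% higher), beside 0.05 and 56.2% over all ranked genes. The median was 0.00 in the 30 small-subunit genes and 0.14 in the 46 large-subunit genes. In percentile points the median was 2.21 over members and 1.34 over all ranked genes, and in windows at listed starts it was -0.04 and 1.36.

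Rps28 (chr17:33823036-33824562), a small-subunit protein near the mRNA exit, had the smallest p of the family. It ranked at 98.3, 98.7 and 98.0 in DMSO and at 73.8, 91.4, 75.1 and 82.4 in pracinostat, so that the groups did not overlap. The difference was -1.23 ± 0.34 (SE) normal-score units, with an adjusted p of 0.757 by limma. Kank3 and Ndufa7 have an end in the same windows, so these values cannot be assigned to Rps28 alone. Rpl11 (chr4:136049354-136053393) ranked at 91.0, 98.3 and 91.5 in DMSO and at 85.7, 76.9, 86.6 and 62.5 in pracinostat, a difference of -0.80 ± 0.33 (limma adjusted p of 0.775). Without DMSO replicate 2 the difference at Rpl11 was -0.55.

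Rpl23a, a large-subunit protein at the end of the exit tunnel, was on the other side. It ranked at 62.9, 30.6 and 51.2 in DMSO and at 78.8, 65.1, 68.9 and 69.9 in pracinostat, where 30.6 stands for no summit. The groups did not overlap. The difference was 0.60 ± 0.27 (SE) normal-score units with a limma adjusted p of 0.788. In percentile points it was 22.5, and 13.7 without that library.

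The other genes with small p-values lay on both sides. Rpl27 (-0.68) and Rpl10a (-0.61) were lower, at 75.1 ± 4.76 and 84.0 ± 6.28 in pracinostat against 89.5 ± 8.85 and 94.6 ± 2.5 in DMSO. Rpl36a (0.61), Rpl27a (0.51) and Rpl24 (0.42) were higher, at 82.2 ± 4.82, 92.6 ± 1.77 and 67.7 ± 3.46 against 61.6 ± 27, 82.5 ± 5.01 and 51.6 ± 18.2. Rpl36a and Rpl24 had no summit in DMSO replicate 2. Without it the difference in Rpl36a went from 20.6 to 5.11 percentile points and that in Rpl24 from 16.1 to 5.57.

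**Figure D5:**
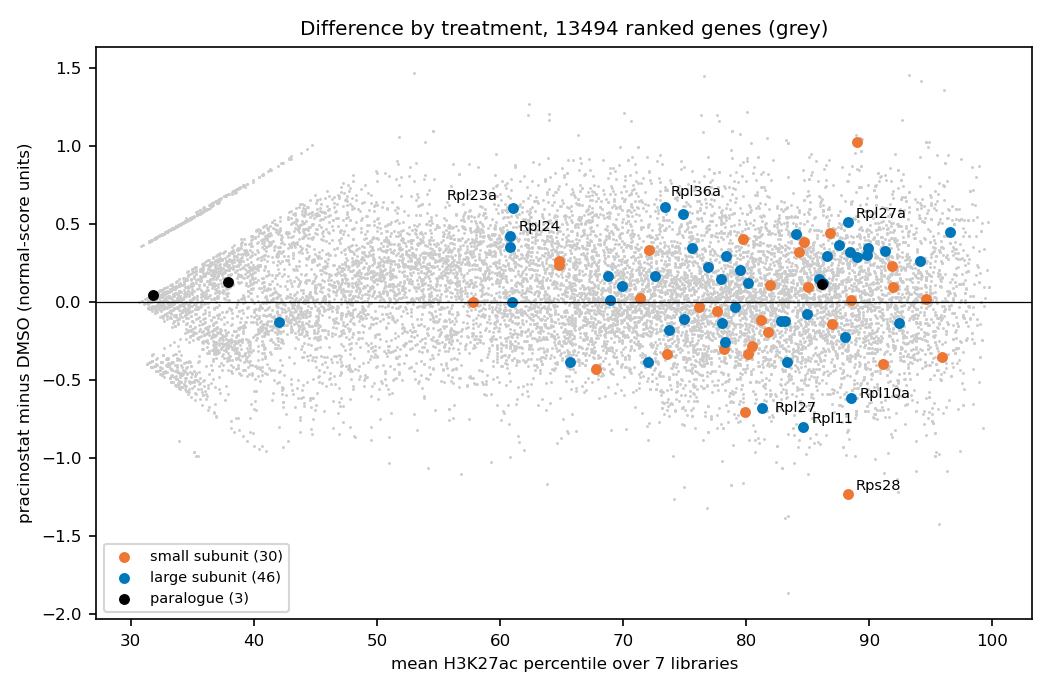
Pracinostat minus DMSO in normal-score units (y axis) against the mean percentile over 7 libraries (x axis) for 13494 ranked genes in grey and 79 ribosomal protein genes in colour by subunit. Ribosomal protein genes spread to both sides of 0 inside the grey cloud, with Rps28 lowest at -1.23.

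Genes of the surrounding pathway stood at similar levels and likewise gave no call. Of 49 ribosome biogenesis genes (RNA polymerase I, processing and assembly factors), 0 passed the adjusted threshold, 2 were higher and 2 lower at an unadjusted p under 0.05, and the median percentile was 81.8. For this and the next 2 lists, the shares over all ranked genes at that limma p were 4.03% higher and 2.12% lower. Wdr75 (0.94) and Polr1e (0.80) had the smallest p among those higher with pracinostat, and Rrp1 (-0.89) and Sbds (-0.68) among those lower. Of 40 translation factors 0 passed, 1 was higher and 2 lower, with a median percentile of 84.9. The smallest p-values there were those of Eif3c (0.78) and Eif5b (0.84) among those higher, and of Eif3l (-0.69) and Eif5 (-0.84) among those lower; all 4 act in translation initiation. Of 22 genes that control ribosome synthesis through growth signals 0 passed, 2 were higher (Larp4, 0.81, and Rps6ka1, 0.65) and 1 was lower (Pdcd4, -0.87). Rps6kb1 (-0.35) had the next smallest p among those lower, and the list had a median percentile of 74.9. Of the genes named as higher in these lists, Wdr75, Polr1e, Eif3c, Larp4 and Rps6ka1 had no summit in DMSO replicate 2. Eif5b tied at the lowest score of that library. The genes named as lower all had a summit in it above that score.

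Ribosomal components whose symbols fall outside the form were read for comparison. Of 8 ranked genes 0 passed the adjusted threshold and 1, Rack1, was higher at an unadjusted p under 0.05, where 4.03% of all ranked genes were. Rack1, a scaffold protein on the small subunit, ranked at 81.3, 67.2 and 80.8 in DMSO and at 91.7, 93.0, 97.9 and 95.5 in pracinostat, a difference of 0.91 ± 0.33 with a limma adjusted p of 0.757. Its groups did not overlap, which held in the same direction for 3.86% of all ranked genes. The value of 67.2 in DMSO replicate 2 is the tie at that library's lowest score. The next smallest p among those higher was that of Rpl7l1 (0.26), and Rpl22l1 differed by -0.16. Rps27rt, a retrotransposed copy, was the 1 gene of the list without a summit.

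By the median of each list, marker levels were highest for the sorted cell type. All 12 macrophage markers, Itgam (CD11b) among them, had a summit in all 7 libraries, with a median percentile of 82.4. The medians were 43.7 for 10 neutrophil markers, 38.8 for 8 lymphocyte, 30.9 for 8 neuron and astrocyte, 32.3 for 8 oligodendrocyte and 37.4 for 8 endothelial and mural markers. A summit in all 7 libraries was found for 3 neutrophil, 2 oligodendrocyte and 1 endothelial and mural markers, and for 0 of the other 2 lists. Mbp (75.7), Kdr (74.8), S100a8 (72.0), Csf3r (70.9) and Cnp (69.2) ranked above Itgam (67.4). All other markers of these 5 lists ranked below it. By treatment, 11 of 12 ranked macrophage markers were higher with pracinostat (median difference 0.23), as were 6 of 6 lymphocyte (0.27), 4 of 5 endothelial and mural (0.15) and 2 of 3 neuron and astrocyte markers (0.57), beside 56.2% of all ranked genes. Of the neutrophil markers 2 of 8 were higher (-0.16) and of the oligodendrocyte markers 1 of 4 (-0.35). In limma 0 of these markers passed the adjusted threshold, and at an unadjusted p under 0.05 Slc1a3 was higher and Cxcr2 lower. Slc1a3 had no summit in DMSO replicate 2. Of all ranked genes 4.03% were higher and 2.12% lower at that p. The median percentile of the macrophage list was 76.9 to 84.3 in DMSO and 77.7 to 89.4 in pracinostat libraries, and that of the neutrophil list 45.4 to 49.7 and 33.0 to 45.9. The part of cell composition in the differences at ribosomal protein genes was not tested.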

How the data were processed

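H3K27ac and IgG CUT&Tag libraries (7 each) were used, with 1 deposited summit list per library. Bowtie2, MACS2 2.2.9.1 and the build mm10 are named per the submitters' processing notes, without their settings. The deposited score is the −log10 of a p-value or q-value; which of them is not stated, and it was not normalized between libraries, so ranks within a library were used.

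Genes came from a RefSeq table of GRCm38.p6. The highest score within 1 kb of either gene end was ranked among all protein-coding genes. Percentiles were turned into normal scores and compared with limma 3.58.1 (trended, robust variance, R 4.3.3), for genes with a summit in at least 3 libraries, with Benjamini-Hochberg adjustment at 0.05. The limma step was tested on simulated data.

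The members and gene lists were chosen with earlier results of these data known. Named were the members with the 5 smallest p in each direction, the 6 highest and 6 lowest, and a fixed set of well-studied genes; in the pathway lists, the 2 smallest p in each direction. Marker lists are given by counts. Rpl10, Rpl18, Rpl19, Rpl23, Rpl26, Rpl31, Rpl38, Rpl39, Rpl41, Rps2 and Rps27rt were named after their values were seen. Replicate numbers are shared between groups, and correlations of same-numbered libraries (-0.05, 0.02 and -0.01) showed no pairing. Alternatives covered the window, list length, ranking, filter, score, replicates, block, covariate and weights. Results for 3 genes picked by the naming rule are not reported here.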

Additional observations from a re-analysis of the deposited data

Results flagged for a closer look

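Among 33 groups of 4 pracinostat values tested for a library far from the others, 3 were picked out, and chance alone picks out about 1 in 20. Rpl32l had a percentile of 47.9 in pracinostat replicate 1, where the other 3 pracinostat libraries had no summit. The rate of 1 in 20 does not hold for Rpl32l, because any summit is picked out when the other 3 libraries have none. Rpl5 stood at 98.6 in pracinostat replicate 3, against 73.8 to 75.3 in the other 3. The median percentile of the 81 ribosomal protein genes was 76.5 in pracinostat replicate 4, against 81.9 to 82.4 in the other 3. That library had 289017 summits, the most of the pracinostat libraries. The groups of 3 DMSO libraries are too small for the same check.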

How the results depend on the processing

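No ribosomal protein gene passed the adjusted threshold under any of the 19 alternatives. The count over all ranked genes was 0 in the analysis reported, 1 with each list limited to its 30000 highest-scoring summits and 3 without the filter on the number of libraries. Leaving out 1 library at a time gave 0 to 1, with the 1 gene found without DMSO replicate 3. With the replicate number as a block 3 genes passed, none of them a ribosomal protein gene, and 2 members were higher and 2 lower at an unadjusted p under 0.05; pracinostat replicate 4 has no partner in that fit, and the numbers did not pair the libraries. The mean percentile of the family in DMSO was 73.8 with the 5′ end alone, 73.1 with 30000 summits and 73.8 over whole genes, and in pracinostat 75.1, 73.7 and 74.9. The share of members with a summit fell to 77% in DMSO and 78.7% in pracinostat with 30000 summits, and in pracinostat to 93.8% with 500 bp windows and 92.6% with the 5′ end alone. Over the same genes, fewer summits or smaller windows can only lower that share. The values with the 5′ end alone cover other genes, the 61 members with a listed start, ranked among 17492 genes. Rpl24 turned from higher to lower (-0.18) with windows of 2.5 kb; the cause was not tested. Windows at listed transcript starts and over whole genes were added after seeing the data. Without DMSO replicate 2, 1 member was higher and 1 lower at an unadjusted p under 0.05. The difference at Rps28 ranged from -1.41 to -1.03 over its alternatives, with a limma adjusted p from 0.36 to 0.953. The number of summits in the list of DMSO replicate 2 limits what can be said of weakly marked members.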
